A study of Homo sapiens with 6 samples.

Results

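In SK-N-AS, a cell line from a human neuroblastoma, 231 genes gave a signal at or above the limit of log2 5 on both arrays of untreated spheroid cultures and under it on every array of the other 2 cultures of the study. They were found among 19775 genes that have an array probe set naming 1 gene. Each gene was read from its probe set with the highest mean over the 6 arrays. Of 245 genes with this pattern, 14 were left out by name: HAND1, SLC18A1, TNF, IL1B, CXCL10, TFAP2B and every symbol starting with COL, HOX, SCN, CACNA1 or KCN. The members were therefore chosen from these arrays, and their levels are given as a description without a test. Gene coordinates are those of RefSeq on GRCh38.p14. Genes named outside the rule for named genes were picked after their values were seen.

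RNA of 3 cultures was measured on Affymetrix HG-U133 Plus 2.0 arrays, 2 for each culture. Cells of the Monolayer culture grew attached and had no pretreatment, and Sphere cells, also without pretreatment, grew as spheroids in medium without serum. The iCSC cells received 5AdC (2.5 uM) for 5 days while they grew as a monolayer and then formed spheroids in the serum-free medium. 5AdC is 5-aza-2'-deoxycytidine, a nucleoside analogue that traps DNA methyltransferases and lowers DNA methylation. All 3 cultures came from the same line, and the study asked about the stem cell phenotype of each. The labels do not name the medium of Monolayer. The form of growth and the medium of Sphere cannot be told apart here. Whether the arrays of a culture stem from independently grown cells is not said in the labels, so the p-values here rest on array-to-array spread that can be purely technical.

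Neuroblastoma arises from the sympathoadrenal lineage of the neural crest, whose cells become sympathetic neurons and chromaffin cells. Neurons and neuroendocrine cells store transmitters and peptides in vesicles, sense them through channels and G protein-coupled receptors, and steer their processes by guidance molecules. Tumour cells can also switch on genes better known from immune cells, among them chemokines, receptors of the tumour necrosis factor family and complement, many of which answer to the transcription factor NF-kappaB. Members of both kinds are described here by role. The roles were assigned after the values had been seen.

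Sequences of 6 member promoters are shown because the cultures differ in exposure to an inhibitor of DNA methylation, which acts on CpG dinucleotides, and because 3 of the immune members hold a motif of NF-kappaB. Each runs 5′ to 3′ from 250 bases before to 50 bases after the RefSeq start site on GRCh38.p14. In CXCL11 (chr4:76036021-76036320, minus strand), TNFRSF9 (chr1:7940790-7941089, minus strand) and CD274 (chr9:5450292-5450591, plus strand) the capitals mark matches on either strand to a TATA box (TATAAA), to the motif bound by AP-1 factors (TGACTCA) and to a kappaB motif, the kind bound by NF-kappaB (GGANTTTCC).
CXCL11: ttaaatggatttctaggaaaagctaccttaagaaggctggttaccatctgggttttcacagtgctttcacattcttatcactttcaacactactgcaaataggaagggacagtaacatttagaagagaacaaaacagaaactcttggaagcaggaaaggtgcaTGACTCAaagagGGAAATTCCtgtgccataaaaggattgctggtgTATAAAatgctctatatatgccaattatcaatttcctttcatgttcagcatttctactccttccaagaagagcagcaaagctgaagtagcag
TNFRSF9: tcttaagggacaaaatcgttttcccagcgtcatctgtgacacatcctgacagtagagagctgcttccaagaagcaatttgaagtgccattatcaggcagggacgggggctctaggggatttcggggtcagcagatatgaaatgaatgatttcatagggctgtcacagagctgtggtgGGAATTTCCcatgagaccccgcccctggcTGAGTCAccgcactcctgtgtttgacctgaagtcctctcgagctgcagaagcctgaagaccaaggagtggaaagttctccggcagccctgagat
CD274: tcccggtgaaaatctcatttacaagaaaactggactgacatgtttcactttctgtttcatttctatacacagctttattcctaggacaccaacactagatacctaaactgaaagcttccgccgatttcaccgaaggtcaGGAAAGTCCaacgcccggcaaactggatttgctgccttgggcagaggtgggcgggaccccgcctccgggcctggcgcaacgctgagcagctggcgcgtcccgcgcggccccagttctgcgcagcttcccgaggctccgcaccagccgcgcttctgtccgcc

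The CXCL11 promoter held the AP-1 letters from position -87, the kappaB letters on its other strand from -75 and the TATA box from -42, counted from the start site. TNFRSF9 held the kappaB letters from -73 and the AP-1 letters on the other strand from -44, and CD274 held the kappaB letters on the other strand from -111. None of the marked matches overlapped another. Among 15382 promoters of genes on the array, 8.76% held this TATA box, 3.74% these AP-1 letters and 1.68% these kappaB letters on either strand. Of the 16 members among cytokines, complement and immune receptors 8 have a promoter in the table, and the other 5 of these (LGALS3, TNFRSF19, CHI3L1, EBI3 and IL17D) do not hold the kappaB letters. Of 17 promoters of immune members that act inside the cell 5 hold these letters. They are also in 2 of 12 promoters of matrix members, 1 of 8 of ion channels and 1 of 13 of non-coding RNAs. In the remaining roles no promoter holds them. Since the roles were assigned after the values were seen and many members lack a promoter, no difference between roles is read from these counts. A match of letters is not evidence of binding, which was not measured. Only 172 of the 231 members (74.5%) have a promoter in the table, so no share over all the members is given.

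The next 3 promoters belong to members with very high Sphere levels, MARCHF11 (chr5:16179742-16180041, minus strand), LGALS3 (chr14:55129002-55129301, plus strand) and GPX7 (chr1:52602121-52602420, plus strand). Capitals mark each CpG.
MARCHF11: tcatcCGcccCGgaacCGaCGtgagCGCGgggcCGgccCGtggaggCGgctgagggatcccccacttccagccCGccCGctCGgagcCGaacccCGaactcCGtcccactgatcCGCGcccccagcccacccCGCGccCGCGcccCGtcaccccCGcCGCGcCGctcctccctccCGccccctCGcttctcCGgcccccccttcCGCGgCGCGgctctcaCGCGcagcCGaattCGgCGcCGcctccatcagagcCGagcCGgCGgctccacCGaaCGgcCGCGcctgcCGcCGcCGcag
LGALS3: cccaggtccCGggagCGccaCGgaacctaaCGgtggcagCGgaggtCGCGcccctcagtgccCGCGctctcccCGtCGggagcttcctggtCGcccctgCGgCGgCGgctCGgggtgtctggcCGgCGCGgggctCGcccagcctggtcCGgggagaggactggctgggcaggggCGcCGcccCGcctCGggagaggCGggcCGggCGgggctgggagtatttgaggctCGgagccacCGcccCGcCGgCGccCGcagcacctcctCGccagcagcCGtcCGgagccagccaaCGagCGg
GPX7: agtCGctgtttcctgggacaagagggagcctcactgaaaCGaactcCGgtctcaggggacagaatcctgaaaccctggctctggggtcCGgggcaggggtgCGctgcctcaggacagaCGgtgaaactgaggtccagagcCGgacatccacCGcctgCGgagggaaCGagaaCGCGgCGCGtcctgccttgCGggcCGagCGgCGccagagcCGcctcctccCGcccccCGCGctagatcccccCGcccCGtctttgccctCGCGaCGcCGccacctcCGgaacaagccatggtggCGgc

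MARCHF11 held 49 CpG dinucleotides in 300 bases, with an observed over expected ratio of 1.15. LGALS3 held 39 with a ratio of 0.85, and GPX7 held 30 with a ratio of 0.84. The CXCL11 promoter held none. The 3 dense examples do not stand for all members with high Sphere levels. PRTFDC1 (Sphere mean 10.47) held 40 CpG with a ratio of 0.88. ARMCX1 (10.56) held 14 with a ratio of 0.64, and LAMP5 (10.29) held 11 with a ratio of 0.58. CpG-dense and CpG-free promoters are thus both found among the members, and 66.5% of the 15382 promoters reached a ratio of 0.6. No link between Sphere level and CpG density is read from these examples. DNA methylation was not measured in this study.

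The members ranged from genes at the limit to some of the strong signals of the array. All levels here are log2 GCRMA signals, and the 2 values of a culture are those of its array 1 and array 2, in that order. The mean of the 2 Sphere arrays ran from 5.10 to 12.14, with a median of 6.75 and quartiles of 5.97 and 8.02. It reached 10 in 12 members, 8 in 58 and 6 in 168. The members' median was 6.85 and 6.78 in Sphere, 2.69 and 2.75 in Monolayer, and 2.91 and 2.99 in iCSC. By the rule no Sphere value overlaps one of the other cultures, and the distance from the lower Sphere array to the highest other array had a median of 3.32, with 0.15 and 8.19 as its extremes. Because a level under log2 5 is only a bound, a fold is written as "at least" and is the Sphere mean over the limit. The means are given ± SD over 2 arrays (n = 2 throughout).

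**Figure D1:**
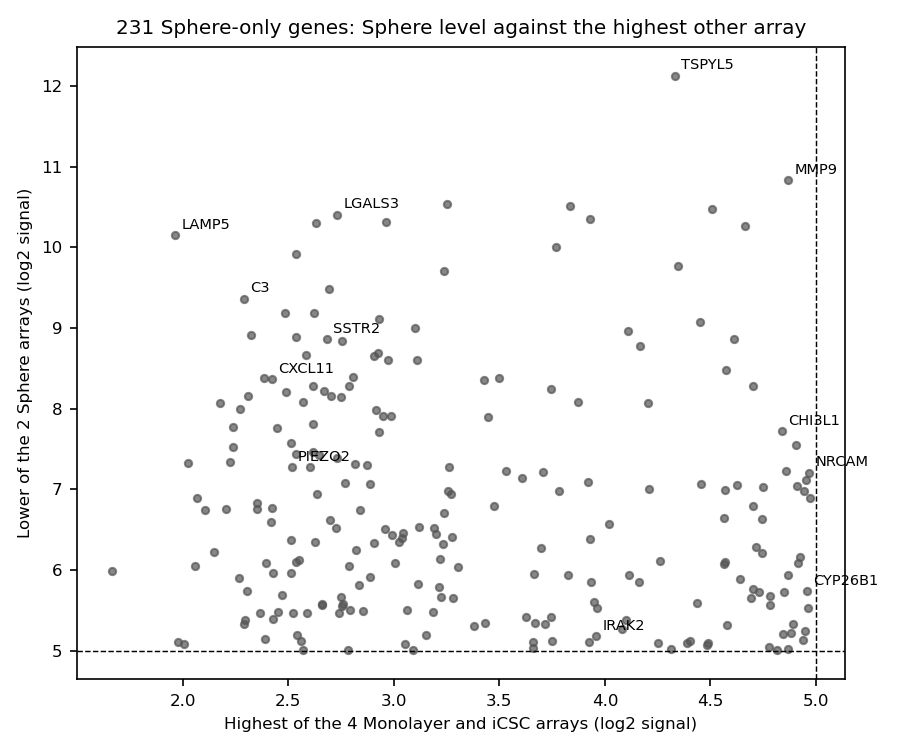
Each point is 1 of the 231 members, with the lower of its 2 Sphere arrays (log2 signal) on the vertical axis against the highest of its 4 Monolayer and iCSC arrays on the horizontal axis. Dashed lines mark the limit of 5 that chose the members, and 105 members lie left of 3 while 66 lie at 4 or above.

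How dark the other cultures were varied between members. In 165 members all 4 Monolayer and iCSC arrays lay under 4, and in 105 under 3, where the GCRMA values of silent probe sets gather. An iCSC array reached 4 in 60 members and a Monolayer array did so in 26, with 20 members in both counts. The members nearest the limit show what the rule turns on. CAPS2 (lower Sphere array 5.002), GBP4 (5.0045), HAGLR (5.01) and ZNF529-AS1 (5.01) were just inside on the Sphere side, while CLIC2 (4.996), CYP2J2 (4.99), ERBB2 (4.98) and PSMG3-AS1 (4.98) fell just outside. On the other side NID2 (highest other array 4.97), NRCAM (4.97), IGIP (4.96) and CYP26B1 (4.96) stayed in, and ZNF414 (5.01), IFI27L2 (5.01), EGLN3 (5.01) and TMEM59L (5.02) did not. In 22 members the distance between Sphere and the highest other array was under 1.

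Whole-array measures differed little between the cultures. The median signal of an array was 2.78 to 2.83, and log2 5 was reached by 34.3% to 35.2% of its probe sets. The 3' minus 5' difference of the ACTB control probe sets, a sign of RNA integrity, was 1.21 to 1.22 in Sphere, 1.16 to 1.25 in Monolayer and 1.40 to 1.47 in iCSC, and its part in the results was not tested. Of 11 chromaffin and neuroblast markers 10 reached the limit on both Sphere arrays, against 3 in Monolayer and 9 in iCSC. The count differed between cultures of the same line, so it is no check of the line. All 10 proliferation markers reached it in every culture, but all 10 were called lower in Sphere than in Monolayer (median log2 difference -0.75) and 4 lower than in iCSC (-0.39), and their part in the members' values was not tested. In bulk RNA, fewer cells that express a gene and less RNA per cell cannot be told apart.

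The same rule turned to the other cultures gave sets of like size, with 162 genes for iCSC and 217 for Monolayer. In limma tests over 10450 genes with Benjamini-Hochberg adjustment, 59.1% of all genes were called between Sphere and Monolayer, 38.4% between Sphere and iCSC and 55.6% between iCSC and Monolayer. Called higher in Sphere were 30.0% of all genes against Monolayer and 19.2% against iCSC, and called lower 29.1% and 19.3%. Among the members 228 and 224 were called higher, which the choice of the members fixes, and nothing is read from these counts. Both comparisons share the 2 Sphere arrays.

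TSPYL5, a protein of the nucleosome assembly family, gave the highest signal, with 12.15 and 12.13 in Sphere, 2.91 and 3.07 in Monolayer and 3.13 and 4.33 in iCSC. Its Sphere mean of 12.14 ± 0.02 was at least 141-fold above the other cultures. The second iCSC array came closest to the limit. Signals of different genes come from different probe sets, so their order is one of signal and not of RNA amount. MMP9 (chr20:46008908.0-46016561.0), a secreted gelatinase that cleaves basement membrane collagen, gave 10.83 and 11.53 in Sphere, 4.45 and 4.51 in Monolayer and 4.87 and 4.50 in iCSC. The other cultures came close to the limit for MMP9, and its difference is at least 72.6-fold.

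Signals above log2 10 were also found for genes of other functions. MARCHF11, a membrane-bound ubiquitin ligase, gave 10.48 and 10.77 in Sphere, 2.61 and 2.52 in Monolayer and 4.34 and 4.51 in iCSC. TCEAL7, a small nuclear protein of the TCEAL family encoded on the X chromosome, gave 10.69 and 10.54 in Sphere, 2.41 and 2.43 in Monolayer and 3.16 and 3.25 in iCSC. RERG, a small GTPase of the Ras superfamily described as a growth inhibitor, gave 10.67 and 10.51 in Sphere, 2.53 and 2.53 in Monolayer and 2.54 and 3.83 in iCSC. For RERG a second probe set followed the same pattern, at 10.37 and 9.90 on the Sphere arrays and at most 3.27 elsewhere. The armadillo protein ARMCX1, which sits on mitochondria and aids their transport in axons, gave 10.82 and 10.30 in Sphere and no more than 2.63 elsewhere. Its neighbour ARMCX4, also on the X chromosome, gave 8.16 and 8.22 in Sphere and no more than 2.70 elsewhere.

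**Figure D2:**
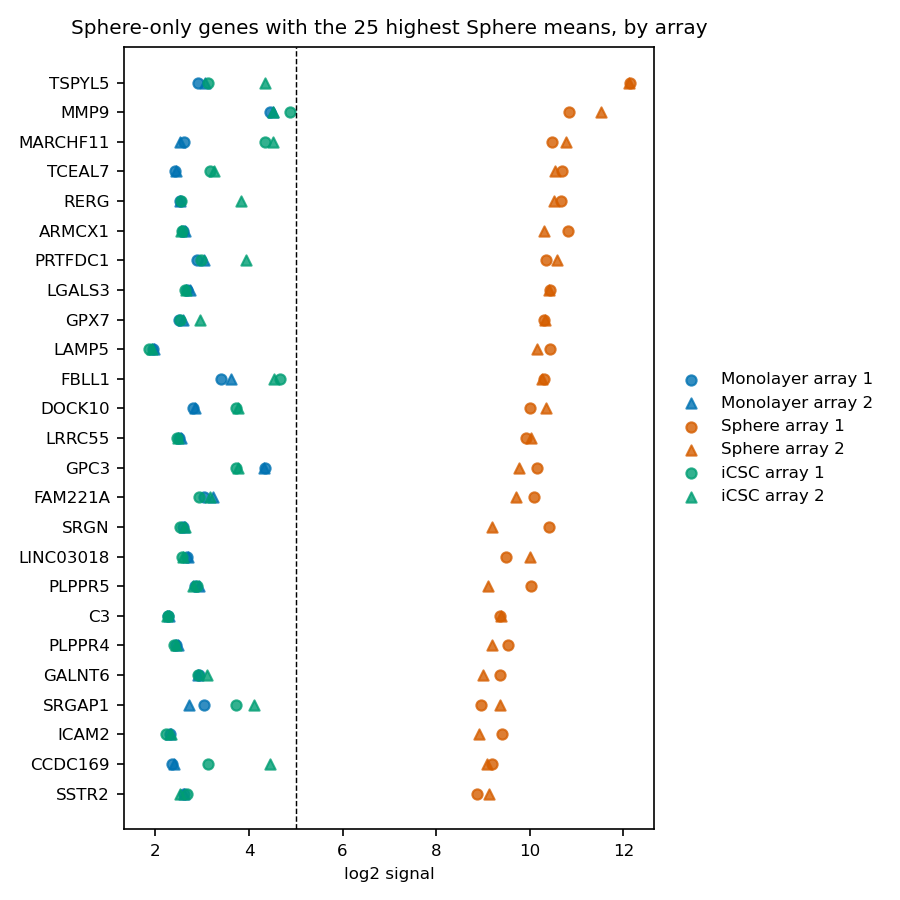
The 25 members with the highest Sphere means are shown with the log2 signal of each of the 6 arrays, circles for array 1 and triangles for array 2, and the dashed line is the limit of 5. All Sphere points lie at 8.86 or above, and the nearest other point is MMP9 on an iCSC array at 4.87.

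Cytokines, complement and immune receptors formed a group of 16 members with a median Sphere mean of 7.93. LGALS3 encodes galectin-3, a lectin that binds beta-galactosides and is made by macrophages and many tumours, and it gave 10.44 and 10.40 in Sphere, 2.67 and 2.73 in Monolayer and 2.63 and 2.64 in iCSC. Its mean of 10.42 ± 0.02 was at least 42.9-fold above both other cultures. C3 (chr19:6677704.0-6720650.0), the central component of complement, gave 9.36 and 9.39 in Sphere, 2.26 and 2.29 in Monolayer and 2.26 and 2.25 in iCSC, at least 20.8-fold higher. The protease C1S of the classical complement pathway was lower, at 6.98 and 7.27 in Sphere. On the 4 other arrays LGALS3 lay at 2.73 or lower and C3 at 2.29 or lower, under the lowest array median of all probe sets, 2.78.

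Among the ligands, CXCL11, an interferon-inducible chemokine that attracts T cells through CXCR3, gave 8.36 and 9.02 in Sphere, 2.38 and 2.42 in Monolayer and 2.34 and 2.36 in iCSC. A second CXCL11 probe set followed, at 6.58 and 6.64 in Sphere and at most 2.57 elsewhere. CX3CL1, a membrane-anchored chemokine of neurons and endothelium, was near the limit at 5.71 and 5.14 in Sphere. EBI3, the shared subunit of interleukins 27 and 35, gave 7.22 and 6.74, and IL17D, a cytokine of the interleukin 17 family, gave 5.48 and 5.09. CHI3L1, a secreted chitinase-like glycoprotein of inflamed and tumour tissue, gave 7.72 and 7.75 in Sphere, and its iCSC values of 4.72 and 4.84 stayed just under the limit while Monolayer lay at 2.57 and 2.57.

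Several receptors of the tumour necrosis factor family were members. TNFRSF9, the costimulatory receptor 4-1BB of activated T cells and a known NF-kappaB target, gave 8.25 and 8.70 in Sphere, 3.73 and 3.68 in Monolayer and 3.55 and 3.74 in iCSC. TNFRSF19, a receptor of progenitor cells also called TROY, gave 7.90 and 8.36 in Sphere and at most 2.95 elsewhere. TNFRSF4, the costimulatory receptor OX40 of activated T cells, gave 6.44 and 6.78. These 3 were higher on the second Sphere array than on the first. IL13RA2, a decoy receptor for interleukin 13, gave 8.84 and 8.85 in Sphere, 2.73 and 2.76 in Monolayer and 2.70 and 2.70 in iCSC, and its 2 Sphere values were almost equal. TLR7, an endosomal sensor of single-stranded RNA, gave 8.08 and 8.89 in Sphere and at most 2.57 elsewhere. The checkpoint ligand CD274, also called PD-L1, gave 6.35 and 7.17 in Sphere against 2.98 and 3.02 in Monolayer and 2.91 and 2.99 in iCSC. ICAM2, an adhesion molecule of blood and endothelial cells, gave 9.41 and 8.91 in Sphere, 2.32 and 2.31 in Monolayer and 2.23 and 2.32 in iCSC, and its second probe set gave 5.82 and 5.07 in Sphere. SIRPA, the receptor of the CD47 signal, hardly cleared the limit at 5.33 and 5.63 and lay at 4.89 and 4.87 in Monolayer.

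Of the 18 members that carry immune signals inside the cell, DOCK10 and SRGN gave the highest signals. DOCK10, a guanine nucleotide exchange factor found in lymphocytes and brain, gave 9.997 and 10.35 in Sphere, 2.80 and 2.83 in Monolayer and 3.71 and 3.77 in iCSC. SRGN, the granule proteoglycan serglycin of blood cells, gave 10.42 and 9.19 in Sphere, 2.59 and 2.62 in Monolayer and 2.53 and 2.62 in iCSC, and its Sphere arrays differed by more than 1. A second SRGN probe set gave 9.20 and 7.17 in Sphere. The adaptor SAMSN1 of lymphocytes gave 8.28 and 8.49, and RGS1, a regulator of G protein signalling in lymphocytes, gave 7.47 and 7.79. ELMO1, the partner of DOCK proteins in engulfment and migration, gave 7.93 and 7.72. JAK3, the kinase behind the common gamma chain of cytokine receptors, gave 6.65 and 6.38 in Sphere, 3.93 and 3.65 in Monolayer and 3.10 and 2.91 in iCSC. IL2RG, which encodes that gamma chain, lay at 3.33 or lower on all 6 arrays. IRAK2, a kinase of the interleukin 1 and Toll-like receptor pathway, had the widest gap of this group between the Sphere arrays, with 5.18 and 7.33, and the kinase IKBKE gave 5.65 and 6.88. FERMT3, the integrin activator kindlin-3 of blood cells, gave 5.73 and 7.05 in Sphere and at most 2.31 elsewhere.

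Leukocyte markers were measured beside these genes. Of 16 such markers 15 failed to reach the limit on either Sphere array, and the exception, PTPRC, reached it in Monolayer as well. The summed log2 level of the 16 was 52.1 to 52.7 in Sphere, 51.7 to 52.6 in Monolayer and 42.5 to 42.8 in iCSC. All 10 endothelial markers were under the limit in Sphere.

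The rest of the cytokine, chemokine and NF-kappaB list, which does not hold TNF, IL1B and CXCL10 that the rule left out, did not behave as 1 block. Of 17 tested non-members, 10 were higher and 4 lower in Sphere than in Monolayer (median log2 difference 1.08, against 0.01 over all tested genes), and 11 were higher and none lower than in iCSC (1.85 against -0.01; with no filter on low values, 1 was lower). Without x_at and s_at probe sets, whose probes can match several transcripts, the higher calls fell to 4 and 5 and the lower calls against Monolayer to 2. The lower calls against Monolayer also fell without either Monolayer array. The filter of log2 5 on at least 2 arrays was applied anew when arrays or probe sets were left out. Such drops, here and for later lists, therefore include genes that were no longer tested. A gene under the limit on both arrays of a culture entered the test only through the other cultures. Its direction against that culture is then partly set by the filter, in every list. Shares called over all tested genes were 30.0% higher and 29.1% lower against Monolayer, and 19.2% and 19.3% against iCSC. ICAM1, an adhesion molecule induced by NF-kappaB, gave 9.82 and 11.25 in Sphere, 2.86 and 3.84 in Monolayer and 4.34 and 5.17 in iCSC, so 1 iCSC array passed the limit and kept it out of the members. It was at least 46.3-fold higher in Sphere than in Monolayer (limma, adjusted p = 7.79e-05). It was also called higher than in iCSC (limma, adjusted p = 0.000427), without a size, since 1 iCSC array lay under the limit. RELB, a subunit of NF-kappaB, gave 8.66 and 8.90 in Sphere, 4.98 and 5.01 in Monolayer and 4.96 and 5.66 in iCSC, and was called higher in Sphere than in iCSC (limma, adjusted p = 0.000134), again with 1 iCSC array under the limit. TNFAIP6, a hyaluronan-binding protein of inflammation, shared its rise with iCSC, at 8.33 and 8.33 in Sphere and 8.96 and 7.68 in iCSC against 2.46 and 2.60 in Monolayer (limma, adjusted p = 3.88e-05 and 5.46e-05). LIF, a cytokine of the interleukin 6 family, was at least 8.37-fold lower in Sphere than in Monolayer (limma, adjusted p = 0.000414).

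Cytokine receptors and their signalling genes were split. Of 19 tested non-members, 5 were higher and 10 lower in Sphere than in Monolayer (median -0.48), and 7 were higher and 3 lower than in iCSC (0.50). The 10 lower calls fell without either Monolayer array, and the 3 fell without either Monolayer or either Sphere array. IL7R, IL1RAP, IL6R, IL15RA, SOCS1 and TLR3 reached the limit on the Monolayer arrays alone, so they left the test when either was left out. IL7R, the interleukin 7 receptor, lay at 7.83 and 6.91 in Monolayer and at 1.80 or lower on the Sphere and iCSC arrays (limma, adjusted p = 1.5e-05 for Sphere against Monolayer). Of the 14 tested interferon response genes, 4 were higher and 4 lower in Sphere than in Monolayer (median -0.26), and 7 were higher and 4 lower than in iCSC (0.34). Over all tested genes 30.0% were higher and 29.1% lower against Monolayer, and 19.2% and 19.3% against iCSC. The interferon counts against Monolayer thus lie near the shares over all genes. The interferon counts were also unsteady. The 4 lower calls against Monolayer fell without Monolayer replicate 1 or either Sphere array, and the 7 fell without Sphere replicate 2. The 4 against iCSC became 1 without x_at and s_at probe sets. Genes that left the test are part of such drops.

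On the nerve cell side, 24 members take part in synapses, secretory vesicles and the neuronal cytoskeleton, with a median Sphere mean of 7.19. LAMP5 (chr20:9514590.0-9530524.0), a lysosome-associated membrane protein of brain neurons, had the widest distance of all members, with 10.43 and 10.15 in Sphere, 1.95 and 1.96 in Monolayer and 1.85 and 1.93 in iCSC. Its Sphere mean of 10.29 ± 0.20 was at least 39.1-fold above both other cultures. PLPPR5 and PLPPR4, membrane proteins related to lipid phosphatases that promote neurite outgrowth, followed, with 10.03 and 9.12 and 9.53 and 9.19 in Sphere and at most 2.93 and 2.48 elsewhere. For PLPPR5 a second probe set gave 7.65 and 6.83. All 3 of these genes were higher on the first Sphere array.

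Vesicle genes made up much of this group. SYT9, a calcium sensor of vesicle release, gave 8.60 and 8.99 in Sphere, 3.11 and 2.79 in Monolayer and 2.47 and 2.70 in iCSC. RIMS2, an organiser of the presynaptic active zone, gave 7.90 and 8.03, and a second RIMS2 probe set passed the limit on 1 Sphere array alone (5.78 and 4.01). SNAP91, which assembles clathrin at synaptic vesicles, gave 8.23 and 7.39 in Sphere, 2.14 and 2.14 in Monolayer and 2.62 and 2.73 in iCSC. RAB3C, a GTPase of synaptic vesicles, gave 6.91 and 6.34 in Sphere, 2.54 and 2.61 in Monolayer and 2.57 and 2.63 in iCSC, and 2 further RAB3C probe sets followed. PCSK1N, an inhibitor of the prohormone convertase PCSK1 in dense-core vesicles, gave 8.96 and 8.47 in Sphere, 3.01 and 3.09 in Monolayer and 4.57 and 4.49 in iCSC. PTPRN, a membrane protein of insulin and other secretory granules, gave 6.88 and 6.70. The neuronal endosome proteins NSG1 and NSG2 gave 7.92 and 7.43 and 8.20 and 8.50.

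Cytoskeletal members were mostly of middle level. FEZ1, an adaptor of kinesin transport in axons, gave 6.94 and 7.93 in Sphere, CDK5R2, an activator of the neuronal kinase CDK5, gave 7.19 and 6.94, and the neuronal kinesin KIF5A gave 5.53 and 6.40. STMN4, a stathmin of neurons, gave 7.42 and 5.93 in Sphere, 2.76 and 2.82 in Monolayer and 3.05 and 4.87 in iCSC, so its second iCSC array almost reached the limit. HOOK1, a linker of microtubules and endosomes, gave 8.18 and 8.16 in Sphere and at most 2.31 elsewhere. ATCAY, the neuronal protein caytaxin, had the widest difference between the Sphere arrays in this role, at 7.39 and 5.46. ACTL6B, the neuron-specific subunit of the BAF chromatin remodelling complex, gave 6.48 and 5.65.

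Other genes of the neuronal and synaptic list were counted as well. Of 21 tested non-members, 17 were higher and 2 lower in Sphere than in Monolayer (median 3.61), and 13 were higher and 2 lower than in iCSC (2.15). Among all tested genes 30.0% were higher and 29.1% lower against Monolayer, and 19.2% and 19.3% against iCSC. SYN2, SNAP25, STMN2, GAP43, NEFM, NEFH, INA, ELAVL3, ELAVL4 and CPLX1 lay under the limit on both Monolayer arrays, so the filter partly set their direction against Monolayer. The 2 lower calls against Monolayer became 1 without Monolayer replicate 2 or without x_at and s_at probe sets and 0 without Monolayer replicate 1. MAPT, the microtubule protein tau, was 3.59 ± 0.38 (log2 difference, SE of the fit, here and for later differences) higher in Sphere than in iCSC (limma, adjusted p = 0.000664). The sympathoadrenal list had no member, but HAND1, SLC18A1 and TFAP2B, which the rule left out by name, are not in that list either. Of its 17 tested genes 16 were higher in Sphere than in Monolayer (median 5.55) and 14 higher than in iCSC (1.78), with none lower. Here PHOX2A, INSM1, TH, CHGB, SCG3, VIP, GAL and DLK1 lay under the limit on both Monolayer arrays, with the same effect of the filter. CHGB, a granin of dense-core vesicles, was 5.27 ± 0.64 higher in Sphere than in iCSC (limma, adjusted p = 0.00116).

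**Figure D3:**
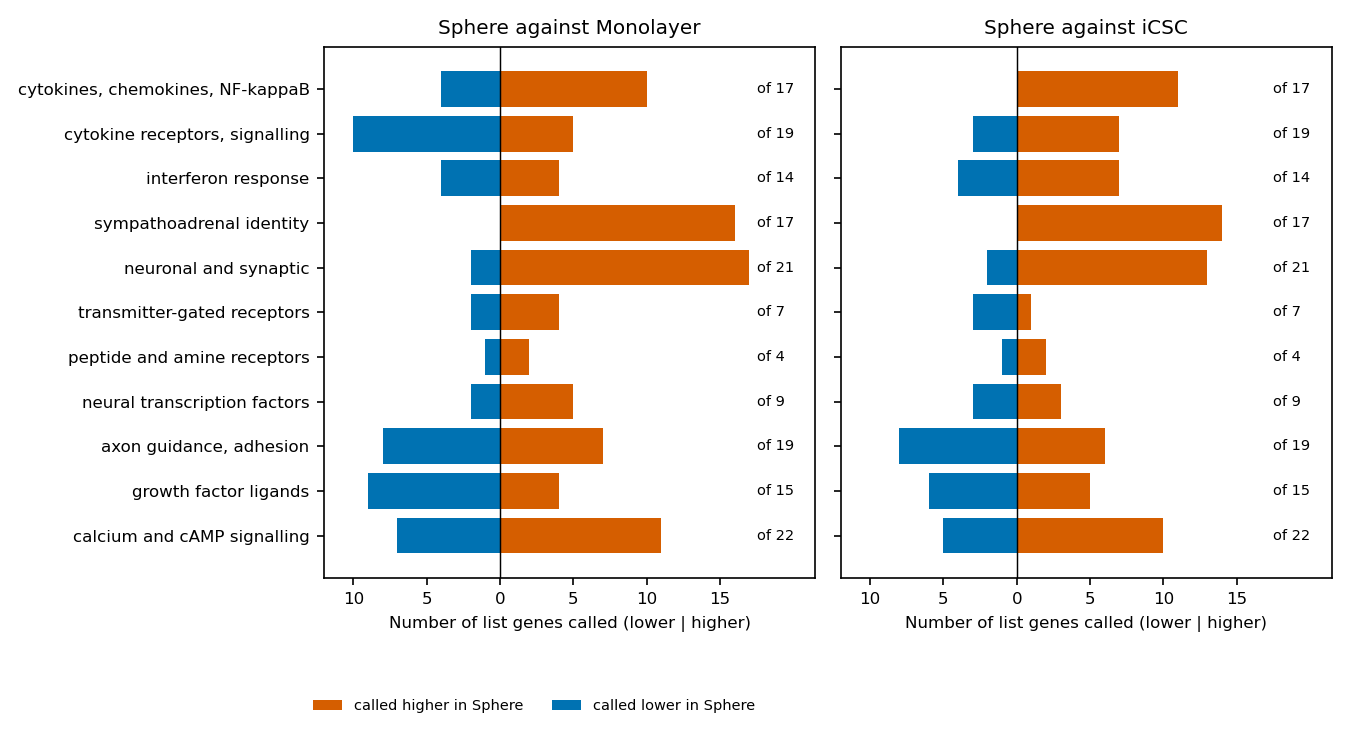
Bars count the genes of 11 pathway lists, members left out, that were called higher (right, orange) or lower (left, blue) in Sphere than in Monolayer or iCSC at a limma adjusted p under 0.05, beside the number tested. The sympathoadrenal list has no lower call in either panel, and cytokine receptors have more lower than higher calls against Monolayer (10 against 5). The 10 fell without either Monolayer array, partly because genes at the limit on the Monolayer arrays alone then left the test. Of all tested genes 30.0% were called higher and 29.1% lower against Monolayer, and 19.2% and 19.3% against iCSC. List genes under the limit on both Monolayer arrays entered the test through Sphere or iCSC, which partly sets their direction against Monolayer.

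Ion channels and their subunits supplied 8 members, with sodium, calcium and potassium channel families left out by the rule. LRRC55, an auxiliary subunit of calcium-activated potassium channels, gave 9.91 and 10.02 in Sphere, 2.50 and 2.54 in Monolayer and 2.45 and 2.47 in iCSC, and its mean of 9.96 ± 0.07 was at least 31.2-fold above the other cultures. NALF1, a partner of the sodium leak channel, gave 8.88 and 9.01 in Sphere, and a second probe set gave 8.62 and 8.28. UNC79, another protein of that channel complex, gave 5.46 and 5.75. Sensory channels were present as well. PIEZO2, the mechanically gated channel of touch neurons, gave 7.91 and 7.27 in Sphere, 2.51 and 2.52 in Monolayer and 2.49 and 2.50 in iCSC, and TRPM8, the cold and menthol receptor, gave 7.51 and 7.31 in Sphere, 2.78 and 2.81 in Monolayer and 2.75 and 2.81 in iCSC.

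Transmitter-gated receptors followed with lower levels. GRIK2, a kainate receptor subunit, gave 7.75 and 6.98 in Sphere, 2.05 and 2.07 in Monolayer and 2.04 and 3.26 in iCSC. GRIA4, an AMPA receptor subunit, gave 6.10 and 5.12 in Sphere and at most 2.56 elsewhere. CHRNB2, the beta-2 subunit of neuronal nicotinic receptors, gave 6.59 and 5.94 in Sphere, 3.45 and 3.80 in Monolayer and 4.08 and 4.11 in iCSC. All 3 were higher on the first Sphere array. Of 7 tested non-members of the list, 4 were higher and 2 lower in Sphere than in Monolayer (median 2.37), while 1 was higher and 3 were lower than in iCSC (-0.26). The 1 was GRIA2, another AMPA receptor subunit, which gave 8.19 and 7.41 in Sphere and 3.06 and 5.17 in iCSC (limma, adjusted p = 0.0055). No size is given, since 1 iCSC array lay under the limit. Of all tested genes, 30.0% were higher and 29.1% lower against Monolayer, and 19.2% and 19.3% against iCSC. With 7 list genes no direction is read from these counts.

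Receptors coupled to G proteins and hormones were 10 members. SSTR2 (chr17:73165010.0-73176633.0), the somatostatin receptor used as an imaging and treatment target in neuroendocrine tumours, was the highest, with 8.86 and 9.12 in Sphere, 2.61 and 2.62 in Monolayer and 2.68 and 2.53 in iCSC. Its mean of 8.99 ± 0.18 was at least 15.9-fold above both other cultures, and 2 further SSTR2 probe sets followed, at 7.16 and 7.43 and at 6.63 and 7.29 in Sphere. Receptors for prostaglandin E2 were represented by 3 members. PTGER2, which raises cyclic AMP, gave 8.45 and 8.22 in Sphere, 2.65 and 2.67 in Monolayer and 2.58 and 2.67 in iCSC. PTGER3, which lowers it, gave 7.87 and 7.75 in Sphere, 2.40 and 2.45 in Monolayer and 2.41 and 2.40 in iCSC, and 2 further probe sets followed. PTGER4, which also raises cyclic AMP, gave 6.64 and 6.10 in Sphere, 2.37 and 2.34 in Monolayer and 4.14 and 4.26 in iCSC, so the iCSC arrays lay above the Monolayer arrays but under the limit.

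Lower levels were found for the remaining receptors. NPR1, the natriuretic peptide receptor that makes cyclic GMP, gave 6.50 and 7.15, LPAR3, a receptor for lysophosphatidic acid, gave 5.55 and 6.62, and FFAR2, a receptor for short-chain fatty acids, gave 5.92 and 5.69 in Sphere. ADGRL3, the adhesion receptor latrophilin 3, gave 6.66 and 6.08 in Sphere, 4.30 and 4.33 in Monolayer and 4.91 and 4.91 in iCSC. Its second probe set gave 6.39 and 5.83 in Sphere and 3.79 and 3.74 in iCSC. Only 4 other genes of the peptide and amine receptor list were tested. Of these, 2 were higher and 1 lower in Sphere in each comparison (medians 1.81 against Monolayer and 0.73 against iCSC). The 1 lower call against Monolayer became 2 with no filter, and that against iCSC became 0 without either iCSC array. EDNRB, an endothelin receptor of the neural crest, was 1.58 ± 0.23 higher in Sphere than in iCSC (limma, adjusted p = 0.00267). ADRA2A was at least 1.55-fold lower in Sphere than in iCSC (limma, adjusted p = 5.47e-05). For this list and the next, the shares over all tested genes were 30.0% higher and 29.1% lower against Monolayer. Against iCSC they were 19.2% and 19.3%. Of 22 tested genes of calcium and cyclic AMP signalling, none a member, 11 were higher and 7 lower than in Monolayer (0.81), and 10 were higher and 5 lower than in iCSC (0.36). The 7 became 4 without either Monolayer array and the 5 became 3 without iCSC replicate 1.

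Guidance and adhesion genes gave 10 members with a median Sphere mean of 7.30. SRGAP1, a GTPase activator downstream of the guidance receptor ROBO, gave 8.97 and 9.36 in Sphere, 3.03 and 2.73 in Monolayer and 3.73 and 4.11 in iCSC, and 2 further SRGAP1 probe sets followed. ROBO2, a receptor for SLIT proteins, gave 6.86 and 6.80 in Sphere, 2.62 and 2.58 in Monolayer and 3.30 and 3.47 in iCSC. LRRC4C, the netrin-G1 ligand of synapses, gave 7.14 and 8.16 in Sphere, 3.43 and 3.51 in Monolayer and 3.46 and 3.61 in iCSC. NRCAM, an adhesion molecule of axons, gave 7.21 and 7.55 in Sphere, 2.87 and 2.90 in Monolayer and 4.93 and 4.97 in iCSC, so it stayed a member by a narrow margin on the iCSC side. NDNF, a secreted neurotrophic factor, gave 8.86 and 9.01, and the cadherins CDH18 and CDH10 of brain neurons gave 7.67 and 6.75 and 6.13 and 6.47. Other genes of the guidance list showed no common direction. Of 19 tested non-members, 7 were higher and 8 lower in Sphere than in Monolayer (median -0.38), and 6 were higher and 8 lower than in iCSC (-0.02). The 8 against Monolayer became 4 and 5 without Monolayer replicates 1 and 2. SLIT2, a ligand of ROBO receptors, was lower in Sphere than in iCSC, at 5.53 and 5.64 against 9.26 and 8.46 (limma, adjusted p = 0.000183). The shares over all tested genes were 30.0% higher and 29.1% lower against Monolayer, and 19.2% and 19.3% against iCSC.

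Matrix proteins, proteases and secreted factors gave 17 members, MMP9 among them. GPC3 (chrX:133535745.0-133985594.0), a heparan sulfate proteoglycan of embryonal tumours, gave 10.16 and 9.76 in Sphere, 4.35 and 4.31 in Monolayer and 3.71 and 3.76 in iCSC. DKK2, a secreted regulator of Wnt signalling, gave 9.30 and 8.66 in Sphere and at most 2.58 elsewhere. SPOCK3, a testican of the brain matrix, gave 8.72 and 8.65 in Sphere, 2.82 and 2.86 in Monolayer and 2.91 and 2.80 in iCSC, and 3 further SPOCK3 probe sets followed, the most of any member. TFPI2, a serine protease inhibitor of the matrix, gave 7.32 and 8.44, and a second probe set gave 5.23 and 6.56. LAMA4, a laminin chain of vessels and nerves, was among the lowest at 5.58 and 5.58. NID2, a basement membrane nidogen, gave 7.71 and 6.89 in Sphere, 2.83 and 2.84 in Monolayer and 4.97 and 4.78 in iCSC, and iCSC array 1 was the closest of all members to the limit. PRSS3, a trypsinogen, gave 7.09 and 8.35, with near-identical trypsinogen genes that the probes may not separate.

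Of the 17 members of this role, 10 were higher on the first Sphere array and 7 on the second (median of the second minus the first -0.07). Some differed widely between the arrays. CRISPLD2, CCDC3, AEBP1, PRSS3 and TFPI2 were each over 1 log2 higher on the second Sphere array, for instance CCDC3, a secreted protein, at 5.33 and 6.88 and AEBP1, a matrix protein linked to collagen assembly, at 5.10 and 6.50. Of 11 fibroblast and smooth muscle markers, 8 reached the limit on both Sphere arrays, 6 in Monolayer and 8 in iCSC. Their summed log2 level was 90.5 to 91.2 in Sphere, 66.4 to 69.2 in Monolayer and 82.7 to 84.2 in iCSC, and their part in these values was not tested. Of 15 tested growth factor ligands, none a member, 4 were higher and 9 lower in Sphere than in Monolayer (median -1.05), and 5 were higher and 6 lower than in iCSC (-0.13). The 9 became 5 without x_at and s_at probe sets and also fell without either Monolayer array, and the 5 fell without Sphere replicate 2. FGF5, FGF2, PDGFA and ARTN reached the limit on the Monolayer arrays alone, so they left the test when either was left out. HGF, the ligand of the receptor MET, was 3.92 ± 0.26 higher in Sphere than in iCSC (limma, adjusted p = 7.79e-05). FGF5 was at least 52.2-fold lower in Sphere than in Monolayer (limma, adjusted p = 5.98e-07). The difference of PDGFC from Monolayer was -7.31 ± 0.23 (limma, adjusted p = 1.66e-06). Across all tested genes 30.0% were higher and 29.1% lower against Monolayer, and 19.2% and 19.3% against iCSC.

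Transcription regulators gave 17 members, with a median Sphere mean of 6.0. FEV, a factor of serotonin neurons, gave the highest signal of these, with 7.77 and 7.98 in Sphere, 2.22 and 2.24 in Monolayer and 2.19 and 2.22 in iCSC. ARNT2, a partner of neuronal PAS domain factors, gave 7.90 and 6.82. SOX5, a factor of neural crest and cartilage, gave 6.41 and 6.73, and SPIB, a factor of lymphoid cells, gave 6.59 and 5.39. RUNX3, a factor of sensory neurons and T cells, gave 5.96 and 5.56 in Sphere, 2.61 and 2.66 in Monolayer and 2.66 and 2.66 in iCSC, while its second probe set passed the limit on 1 Sphere array alone (5.17 and 3.32). RARB, a retinoic acid receptor, gave 6.30 and 5.59 in Sphere, 1.96 and 4.43 in Monolayer and 4.42 and 4.40 in iCSC, so its Monolayer arrays differed from each other more than its Sphere arrays did. CYP26B1, which degrades retinoic acid, was a member by a narrow margin, at 5.96 and 5.74 in Sphere and 4.96 and 4.69 in Monolayer. BHLHE41, a clock repressor, gave 5.46 and 5.90. MSC, the repressor musculin, gave 5.98 and 6.95 in Sphere and at most 1.67 elsewhere.

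Of the 9 tested non-members among the neural transcription factors, 5 were higher and 2 lower in Sphere than in Monolayer (median 1.29), and 3 were higher and 3 lower than in iCSC (-0.29). The 2 lower calls against Monolayer became 1 without either Monolayer array, without Sphere replicate 2, with no filter and without x_at and s_at probe sets. PROX1, a homeobox factor of neurogenesis and lymphatic vessels, gave 9.71 and 9.06 in Sphere, 2.95 ± 0.36 higher than in iCSC (limma, adjusted p = 0.00116). LHX2 was at least 3.94-fold lower in Sphere than in iCSC (limma, adjusted p = 3.87e-05). For all tested genes the shares were 30.0% higher and 29.1% lower against Monolayer, and 19.2% and 19.3% against iCSC.

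**Figure D4:**
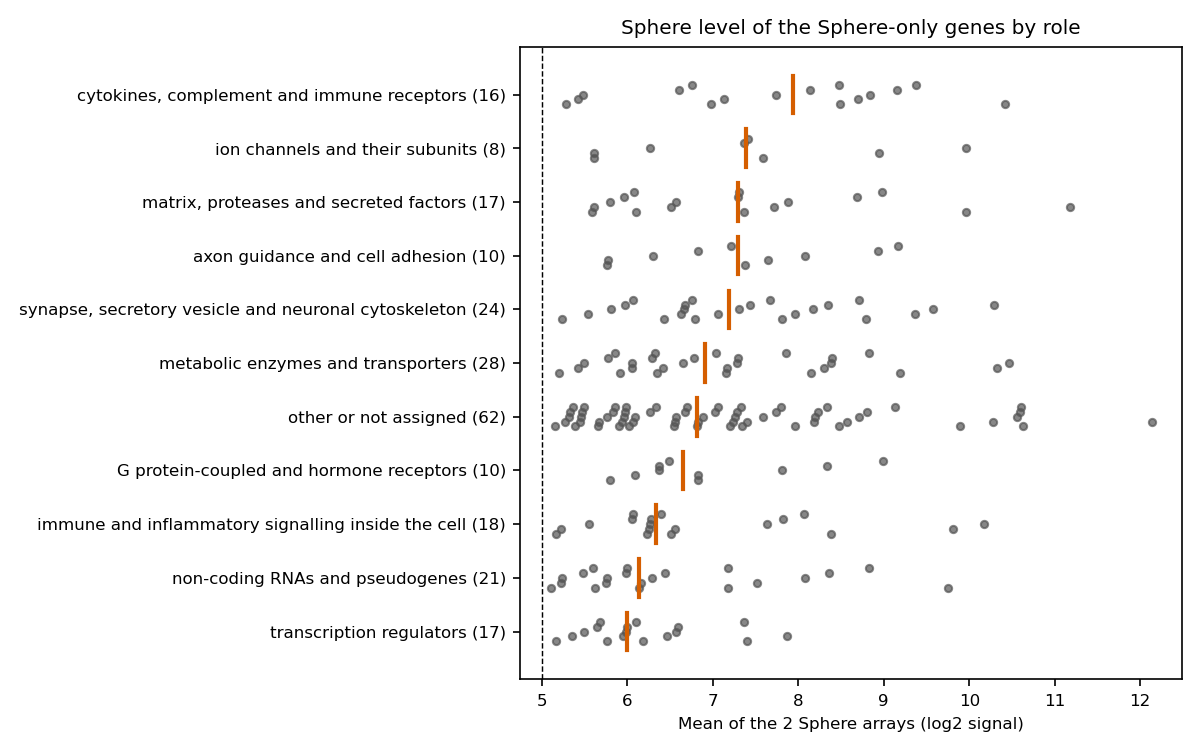
Each point is the mean of the 2 Sphere arrays (log2 signal) of 1 member, sorted by role with the number of members in brackets, and the orange bar is the median of the role. Medians run from 6.0 for transcription regulators to 7.93 for cytokines, complement and immune receptors, and since probe sets differ in how strongly they bind, they give no ranking of RNA amounts.

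Metabolic enzymes and transporters were the largest named role, with 28 members and a median Sphere mean of 6.91. PRTFDC1, a relative of the purine salvage enzyme HPRT1, gave 10.35 and 10.58 in Sphere, 2.88 and 3.03 in Monolayer and 2.98 and 3.93 in iCSC, at least 44.2-fold higher in Sphere. GPX7, a peroxidase of the endoplasmic reticulum, gave 10.31 and 10.33 in Sphere, 2.50 and 2.59 in Monolayer and 2.53 and 2.96 in iCSC, at least 39.9-fold higher. GALNT6, which starts mucin-type O-glycans, gave 9.37 and 9.0 in Sphere, 2.92 and 2.90 in Monolayer and 2.91 and 3.10 in iCSC, and its second probe set gave 8.16 and 8.13. GALC, the lysosomal enzyme lost in Krabbe disease, gave 8.88 and 8.78 in Sphere, 4.17 and 3.51 in Monolayer and 2.17 and 2.45 in iCSC, so here Monolayer and not iCSC came nearest. GSTM3, a glutathione transferase, gave 8.06 and 8.24 in Sphere and at most 2.18 elsewhere, and SLC27A6, a fatty acid transporter, gave 8.41 and 8.38 and at most 2.38. MGLL, which breaks down the endocannabinoid 2-arachidonoylglycerol, gave 6.05 and 6.05.

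AKR1C1 and AKR1C2, neighbours on chromosome 10 that reduce steroids, gave 7.05 and 7.26 and 5.32 and 5.53 in Sphere and 4.58 and 4.63 and 4.56 and 4.58 in iCSC. Their sequences are near-identical, so the probe sets may not separate them. A second AKR1C2 probe set gave 5.73 and 5.71 in Sphere but only 2.81 and 2.72 in iCSC. In 4 more places 2 members lie next to each other in the gene order of GRCh38.p14: PRTFDC1 with THNSL1 on chromosome 10, BHLHE41 with SSPN on chromosome 12, ARMCX4 with ARMCX1 on the X chromosome, and MSC with its antisense RNA MSC-AS1. Whether the probe sets of MSC and MSC-AS1 separate the 2 strands was not tested.

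Non-coding RNAs and pseudogenes gave 21 members with a median of 6.14, led by LINC03018 at 9.49 and 10.01 in Sphere and at most 2.70 elsewhere. Among them are 3 transcripts that carry microRNAs. The mature microRNAs are shown because the arrays measured only the long transcripts, with the seed, bases 2 to 8, in capitals as given by RefSeq on GRCh38.p14: the first lies at chr5:160485372-160485393 (plus strand), the second is shown for its copy in MIR7-3HG at chr19:4770700-4770723 (plus strand), and the third for its copy in MIR9-1HG at chr1:156420392-156420414 (minus strand).
hsa-miR-146a-5p: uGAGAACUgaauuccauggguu
hsa-miR-7-5p: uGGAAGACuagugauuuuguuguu
hsa-miR-9-5p: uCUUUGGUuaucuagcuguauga

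The probe set of MIR146A, a transcript induced by NF-kappaB whose microRNA targets signalling kinases of that pathway, gave 6.75 and 8.28 in Sphere, 2.20 and 2.21 in Monolayer and 2.17 and 2.19 in iCSC. It was over 1 log2 higher on the second Sphere array, as IRAK2 and IKBKE were. MIR7-3HG, the host of a neuroendocrine microRNA, gave 7.89 and 8.28 in Sphere, 2.65 and 2.68 in Monolayer and 2.71 and 3.45 in iCSC. MIR9-1HG, the host of a microRNA of neural progenitors, gave 5.77 and 5.73 in Sphere, 2.67 and 2.83 in Monolayer and 4.81 and 4.85 in iCSC. The 3 seeds differ, and the levels of the mature microRNAs were not measured.

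The remaining 62 members have other or unassigned roles, with a median of 6.82. FBLL1, a relative of the nucleolar methyltransferase fibrillarin, gave 10.29 and 10.27 in Sphere, 3.39 and 3.61 in Monolayer and 4.66 and 4.53 in iCSC. FAM221A gave 10.08 and 9.70 in Sphere and at most 3.24 elsewhere, and CCDC169 gave 9.19 and 9.08 with a second iCSC array at 4.45. BAALC, a neuroectodermal gene also known from acute leukaemia, gave 8.82 and 8.14, and its second probe set gave 8.27 and 7.87. DGKB, a diacylglycerol kinase of neurons, gave 8.38 and 7.98, and BOK, a relative of BCL2, gave 7.84 and 7.34. S100A6, a calcium-binding protein, gave 6.07 and 5.97, and KRT7, a keratin of glandular epithelia, gave 5.83 and 5.08, with at most 2.43 and 2.0 on the other arrays.

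Agreement between probe sets could be looked at for 139 members, while the other 92 have a single probe set. Of 257 further probe sets, 35 from 29 members followed the same pattern, 11 reached the limit on 1 Sphere array alone and 211 stayed under it on all 6. None reached it on a Monolayer or iCSC array. The rule takes the probe set with the highest mean, so the further ones are dimmer by choice.

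The 2 Sphere arrays did not agree equally well for all roles. The median absolute difference between them was 0.39 over the members and 0.14 over all tested genes, and 24 members differed by over 1. Of the members, 144 were higher on the first array and 87 on the second, while 46.1% of all tested genes were higher on the second. Cytokines, complement and immune receptors leaned the other way, with 11 of 16 higher on the second array. Among transcription regulators 12 of 17, among synapse genes 16 of 24, among immune genes that act inside the cell 10 of 18 and among members of other roles 50 of 62 were higher on the first. Matrix members had 10 of 17 higher on the first. In the list genes that are no members and reached the limit on both Sphere arrays, 11 of 14 cytokine and NF-kappaB genes were higher on the second array (median 0.32), and 12 of 17 sympathoadrenal genes on the first. Neuronal and synaptic genes of that kind went against the synapse members, with 13 of 20 higher on the second array (median 0.04). All 10 proliferation markers were higher on the second (median 0.22). With 2 arrays these differences have no test, and their part in the members' values was not tested.

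**Figure D5:**
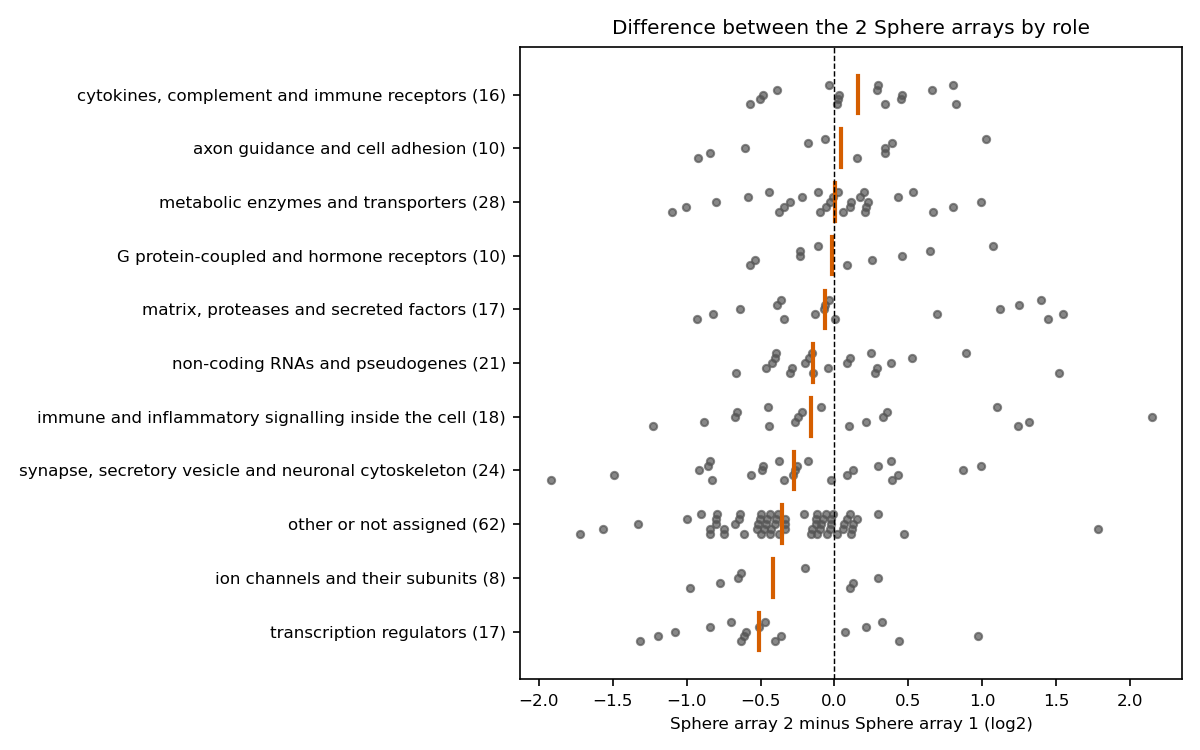
Each point is the log2 difference of 1 member between the second and the first Sphere array, sorted by role, and the orange bar is the role's median. The median lies at 0.16 for cytokines, complement and immune receptors and at -0.51 for transcription regulators.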

How the data were processed

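The authors deposited log2 signals of HG-U133 Plus 2.0 arrays, summarised with GCRMA, per the submitters' processing notes, which also name Partek. No version or setting is given in the sources used here. The method pulls silent probe sets into a narrow low band, so folds of single genes that start there are given as bounds. The medians over lists use the log2 values as they are, also for genes in that band, so their size is uncertain. Of 54675 probe sets, 41091 carried 1 symbol, updated through RefSeq on GRCh38.p14, and gave 19775 genes.

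From these values the members were counted by the rule, and 10450 genes at log2 5 or more on at least 2 of the 6 arrays were fitted in limma 3.58.1 (R 4.3.3) with 1 mean per culture, a variance trend and no covariate. Tests were two-sided, adjusted by the Benjamini-Hochberg method and called under 0.05. The members, the 11 pathway lists and the 6 marker lists were chosen with earlier results of these data known. The rule for named genes took the 25 members with the highest Sphere mean, members in a list, members and genes next to the limit, members with a second probe set at the limit in Sphere, and up to 4 called non-members with the largest change per list. Not every gene that this rule took is given in the text. Further names and the roles were chosen after the values were seen. Whether arrays with the same replicate number belong together is not said in the labels, and the main fit did not pair them. Deviations from the culture means correlated at 0.02, -0.05 and 0.17 between cultures, which cannot settle this. Marker lists covered leukocytes, endothelium, fibroblasts and smooth muscle, Schwann cells with glia and melanocytes, chromaffin cells, and proliferation.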

Additional observations from a re-analysis of the deposited data

Results flagged for a closer look

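Probe sets without a single gene symbol stayed outside the comparisons of the report, and some of them gave a signal in Sphere alone. Of 11721 probe sets with no gene symbol, 35 reached log2 5 on both Sphere arrays and on no Monolayer or iCSC array, with a median Sphere mean of 6.38 and a highest one of 9.67. Of 1801 probe sets with several gene symbols, 10 did so, with a median of 5.94 and a highest mean of 11.62. What these probe sets measure was not analysed here.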

How the results depend on the processing

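The number of members was 248 with a limit of log2 4 and 235 with a limit of log2 6, of which 165 and 146 were among the 231. It was 209 with a distance of at least 1, 193 without x_at and s_at probe sets (173 shared), 228 with the median over a gene's probe sets (137 shared) and 226 after renewed quantile normalization (221 shared). Leaving out each array in turn gave 233 to 300.

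Calls of all genes in Sphere against Monolayer were 6172, and 4371 to 6620 with an array left out. For Sphere against iCSC they were 4017, and 2388 to 3758, with 2388 and 2496 without Sphere replicates 1 and 2. For iCSC against Monolayer they were 5805, and 3806 to 5545, with 3806 without Monolayer replicate 1. With the replicate block the calls were 6215, 4101 and 5882, though the labels do not say whether the replicate numbers pair the arrays. Every other alternative kept these counts within 1.5 times. Of the counts per list under each alternative, 61 moved by more and 533 did not. The filter was applied anew when arrays or probe sets were left out, so a moved count can include genes that left the test. Of the values of single named genes 1836 kept their direction and call, 19 lost the call and none reversed. These values cover 130 gene comparisons, and not each has a value under every alternative, since genes could leave the test. With 2 arrays a culture the precision is low, and levels under log2 5 are bounds. The planned shares of members by promoter CpG ratio were not run, since fewer than 80% of the members have a promoter entry.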

Other observations

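Of all tested genes 2.21% were members, and the share by chromosome is given here without a test, since many counts are small. Members made up 3.39% of the tested genes of the X chromosome (12 members), 3.16% of chromosome 12 (18), 3.15% of chromosome 10 (13) and 3.08% of chromosome 11 (18). On chromosomes 16, 18 and 17 the shares were 0.641% (3 members), 0.699% (1) and 0.849% (5). Chromosome 1 held the most members, 30 of 1071 tested genes. The copy number of the chromosomes was not measured.

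Of 9 markers of Schwann cells, glia and melanocytes, only MITF and PMEL reached log2 5 on both Sphere arrays, while ERBB3 and MITF did so in Monolayer and ERBB3, MITF and PMEL in iCSC.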
